A study of Mus musculus with 6 samples.

Results

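The genes described here encode the mitochondrial ribosomal proteins (MRPs). They were taken as the protein-coding genes whose mm10 symbol is Mrpl or Mrps followed by a number and, in some, a letter. This gave 78 genes, 49 named Mrpl and 29 named Mrps, of 21440 protein-coding genes with a mapped 5′ end. Chromatin accessibility at their promoters was read from ATAC-seq, in which the Tn5 transposase inserts adapters into open chromatin. The cells were spermatogonia-enriched testis cells of mice at postnatal day (Pnd) 5, obtained by differential plating, which removes somatic cells that attach to the dish. S7KO libraries came from Sirt7-/- mice, which lack the deacetylase SIRT7, and WT libraries came from wild-type mice of the same inbred strain, with 3 libraries in each group, numbered 1, 2 and 4 and described by the study as biological replicates.

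Mitochondrial ribosomes translate the few proteins encoded by mitochondrial DNA, which are core subunits of the respiratory chain. All proteins of these ribosomes are encoded in the nucleus, translated in the cytosol and imported. The large subunit carries the peptidyl transferase centre and the small subunit decodes the mRNA. Some MRPs are homologues of bacterial ribosomal proteins and others have no bacterial counterpart. SIRT7 has been described in other cells as a partner of nuclear respiratory factor NRF1 at promoters of MRP genes. The comparison of S7KO with WT here asked whether peaks at these promoters differed without SIRT7.

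Promoter sequence is shown first, because the peaks described below lie on it. RefSeq (GRCm38.p6) gave a window for 69 of the 78 genes, running from 250 bases before the curated transcript start to 50 bases after it, and positions are counted from its first base. The 8 windows below were chosen to show the NRF1, ETS and YY1 motif matches and the windows that hold the 5′ end of a second gene. Capitals mark matches on either strand to GCGCATGC (NRF1), CCGGAAG (ETS factors such as GABPA) or AAGATGGCG (YY1). Only these exact letters were counted. The Mrpl17 window, for example, also holds gcgcacgc, which differs from the NRF1 letters at 1 base and was not counted. Mrps11 (chr7:78782881-78783180, plus strand) also holds the 5′ end of Mrpl46, at base 209 and pointing the other way. Mrpl32 (chr13:14612988-14613287, minus strand) had 4 NRF1 matches, on both strands, and the 5′ end of Psma2 at base 46. Mrps18b (chr17:35916391-35916690, minus strand) had 2 NRF1 matches and 1 ETS match, with the 5′ end of Ppp1r10 at base 179. Mrps12 (chr7:28741772-28742071, minus strand) had 1 ETS match and the 5′ end of Sars2 at base 115. Mrps27 (chr13:99344536-99344835, plus strand) had 1 ETS and 1 YY1 match, with the 5′ end of Ptcd2 at base 143. Mrpl43 (chr19:45006393-45006692, minus strand) had 2 ETS matches. Mrpl17 (chr7:105811038-105811337, minus strand) had 1 NRF1 and 1 ETS match and the strongest peak of the family. Mrpl33 (chr5:31613701-31614000, plus strand) had 1 NRF1 and 1 ETS match and the narrowest peak.
Mrps11: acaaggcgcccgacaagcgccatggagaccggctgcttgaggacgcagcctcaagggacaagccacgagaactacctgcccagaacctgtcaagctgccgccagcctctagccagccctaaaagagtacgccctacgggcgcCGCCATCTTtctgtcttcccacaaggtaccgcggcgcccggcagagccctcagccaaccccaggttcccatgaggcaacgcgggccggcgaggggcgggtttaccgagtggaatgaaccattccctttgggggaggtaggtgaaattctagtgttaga
Mrpl32: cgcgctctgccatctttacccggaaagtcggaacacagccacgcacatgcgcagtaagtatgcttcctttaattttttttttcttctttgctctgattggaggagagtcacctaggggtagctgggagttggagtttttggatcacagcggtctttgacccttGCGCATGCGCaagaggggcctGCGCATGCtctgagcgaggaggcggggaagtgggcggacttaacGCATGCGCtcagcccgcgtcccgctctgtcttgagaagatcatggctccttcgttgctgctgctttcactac
Mrps18b: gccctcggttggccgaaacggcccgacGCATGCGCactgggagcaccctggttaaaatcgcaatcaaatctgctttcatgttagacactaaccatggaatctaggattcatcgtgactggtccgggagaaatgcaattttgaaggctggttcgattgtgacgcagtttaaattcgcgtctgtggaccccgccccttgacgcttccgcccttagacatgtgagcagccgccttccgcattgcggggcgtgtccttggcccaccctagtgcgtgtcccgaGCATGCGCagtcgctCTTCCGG
Mrps12: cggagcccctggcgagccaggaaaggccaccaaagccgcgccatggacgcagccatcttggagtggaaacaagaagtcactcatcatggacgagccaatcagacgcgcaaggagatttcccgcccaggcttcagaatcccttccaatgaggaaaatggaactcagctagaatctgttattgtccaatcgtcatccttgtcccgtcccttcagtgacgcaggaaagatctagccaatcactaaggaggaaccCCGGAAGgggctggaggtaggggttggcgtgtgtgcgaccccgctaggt
Mrps27: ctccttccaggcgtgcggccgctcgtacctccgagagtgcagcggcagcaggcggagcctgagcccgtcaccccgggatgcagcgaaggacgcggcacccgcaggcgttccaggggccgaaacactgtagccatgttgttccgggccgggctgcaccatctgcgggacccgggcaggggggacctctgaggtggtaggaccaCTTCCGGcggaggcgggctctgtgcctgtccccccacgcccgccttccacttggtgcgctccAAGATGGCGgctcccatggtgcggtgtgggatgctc
Mrpl43: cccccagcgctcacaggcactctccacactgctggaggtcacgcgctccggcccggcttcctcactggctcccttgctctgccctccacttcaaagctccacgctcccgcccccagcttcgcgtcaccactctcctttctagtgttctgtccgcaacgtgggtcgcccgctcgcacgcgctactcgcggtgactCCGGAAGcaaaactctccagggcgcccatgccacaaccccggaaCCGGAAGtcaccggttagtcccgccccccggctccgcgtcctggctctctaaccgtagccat
Mrpl17: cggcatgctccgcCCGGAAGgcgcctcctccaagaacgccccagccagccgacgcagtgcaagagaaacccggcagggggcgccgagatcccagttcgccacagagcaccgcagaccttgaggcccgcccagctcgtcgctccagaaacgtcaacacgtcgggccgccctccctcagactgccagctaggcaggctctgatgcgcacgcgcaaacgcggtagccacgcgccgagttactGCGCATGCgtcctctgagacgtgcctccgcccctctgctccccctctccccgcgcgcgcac
Mrpl33: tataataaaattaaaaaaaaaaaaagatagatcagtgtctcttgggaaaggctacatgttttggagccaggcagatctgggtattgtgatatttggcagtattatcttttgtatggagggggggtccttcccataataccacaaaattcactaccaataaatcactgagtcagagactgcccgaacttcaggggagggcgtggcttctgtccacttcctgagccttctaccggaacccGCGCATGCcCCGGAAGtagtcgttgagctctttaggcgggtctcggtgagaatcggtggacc

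Between 105728 and 133663 peaks on chromosomes 1 to 19, X and Y were listed per library. The files give no read depth. Background coverage solved from the fold enrichments and p-values, a relative measure of depth, was 4.72, 5.15 and 6.03 in S7KO replicates 1, 2 and 4 and 4.74, 2.92 and 6.001 in WT replicates 1, 2 and 4, so that WT replicate 2 was the shallowest. Sirt7 itself had a promoter peak in all 6 libraries, which does not test the deletion because the lists give no reads over its exons. A peak was found in all 6 libraries at 13 of 14 germ cell genes fixed as markers, and also at 5 of 6 Sertoli, 3 of 6 Leydig, 4 of 4 peritubular myoid, 2 of 3 endothelial and 0 of 3 macrophage genes. Nanos2 of the germ cell genes had no peak in any library, and of the macrophage genes Ptprc and Adgre1 had none and Csf1r had one in 5. In these bulk libraries, a site open in few cells and a site weakly open in many cannot be told apart.

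Nearly every MRP gene had an accessible promoter. A peak within 1 kb of the 5′ end was present at 75 of 78 MRP genes (96.2%) in each of the 6 libraries, and these were the same 75 genes. Among all protein-coding genes the share was 70.1%, 70.6% and 70.8% in S7KO replicates 1, 2 and 4 and 70.2%, 69.1% and 70.7% in WT replicates 1, 2 and 4, and 68.2% had a peak in all 6. The share in all 6 was 96.4% of 83 cytoplasmic ribosomal protein genes and 91.6% of 83 nuclear genes of oxidative phosphorylation, so the MRP genes lay close to both. Because the genes were chosen with earlier results of these data known, no test was run over the list.

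The peak covered the annotated 5′ end itself at 69 of the 75 genes in all 6 libraries, and at Mrpl20 in 3 of them. It lay near the 5′ end without covering it at Mrpl18, Mrpl23, Mrpl24, Mrpl45 and Mrps31. In all 5, a curated transcript start inside the gene was covered in 6 of 6 libraries. By the curated starts, which RefSeq gives for 69 MRP genes, 68 (98.6%) had a peak in all 6 libraries and 67 (97.1%) had the start itself covered, against 68.8% and 63.9% of 17492 protein-coding genes. The curated start was the gene boundary in 48 of the 69 and lay more than 1 kb from it in 6.

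The genes without a peak were Mrpl4, Mrpl22 and Mrps23. Mrpl22 (chr11:58170043-58179580, plus strand), a large subunit protein with a bacterial homologue, had its nearest peak 1224 to 1365 bp from the gene boundary. That peak covered the curated start, which lies 1621 bp inside the gene, in 6 of 6 libraries, with a median width of 896.5 bp. Mrpl4 (chr9:21001252-21008839, plus strand), also a homologue of a bacterial large subunit protein, had its nearest peak 1064 to 1161 bp from the boundary. At both genes the 1 kb limit thus excluded a peak that every library held. Mrps23 (chr11:88194106-88211507, plus strand), a small subunit protein without a bacterial counterpart, had none within 132692 bp in any library. It lies in a stretch of 339 kb (chr11:87988029-88326797) in which none of the 6 lists used here holds a peak. The 5′ ends of 5 other protein-coding genes are in that stretch, Ccdc182, Cuedc1, Dynll2, Srsf1 and Vezf1. Srsf1, which encodes a splicing factor needed in most cells, had no listed peak either, and the empty stretch is not read as closed chromatin. Its cause was not tested.

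MRP promoter peaks stood high in their lists, as did those of the related gene groups. Peaks were ranked within each library by −log10 q, with the strongest at 0%. The median MRP peak ranked at 3.89%, 3.62% and 3.16% of the list for S7KO replicates 1, 2 and 4. The WT values were 3.75%, 4.61% and 3.38%, and the genotypes overlapped. Over all protein-coding genes with a peak the median rank was between 7.30% and 9.41%. The median fold enrichment, which is pileup divided by local background, was 6.29 to 6.81 at MRP genes and 4.73 to 4.90 at all protein-coding genes. These groups also differed in peak width, as given below, and how far width enters rank or enrichment was not tested. Between 81.3% and 92% of MRP peaks were in the top 10% of their list, against 51.8% to 59.0% over all genes. Cytoplasmic ribosomal protein genes had a median rank of 3.18% ± 0.395 (S7KO) and 3.38% ± 0.243 (WT), with 90% and 89.2% in the top 10%. Oxidative phosphorylation genes had 3.91% ± 0.482 and 3.81% ± 0.762, with 87.1% and 88.6% in the top 10% (SD, n = 3 libraries each). Over the 6 libraries, the median rank of 66 of the 75 genes was within the top 10% and that of 16 within the top 1%. Mrpl17 had the strongest peak, at a median rank of 0.124%, followed by Mrpl18 at 0.167% and Mrpl47 at 0.233%. Mrpl14 had the weakest, at 24.5%.

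**Figure D1:**
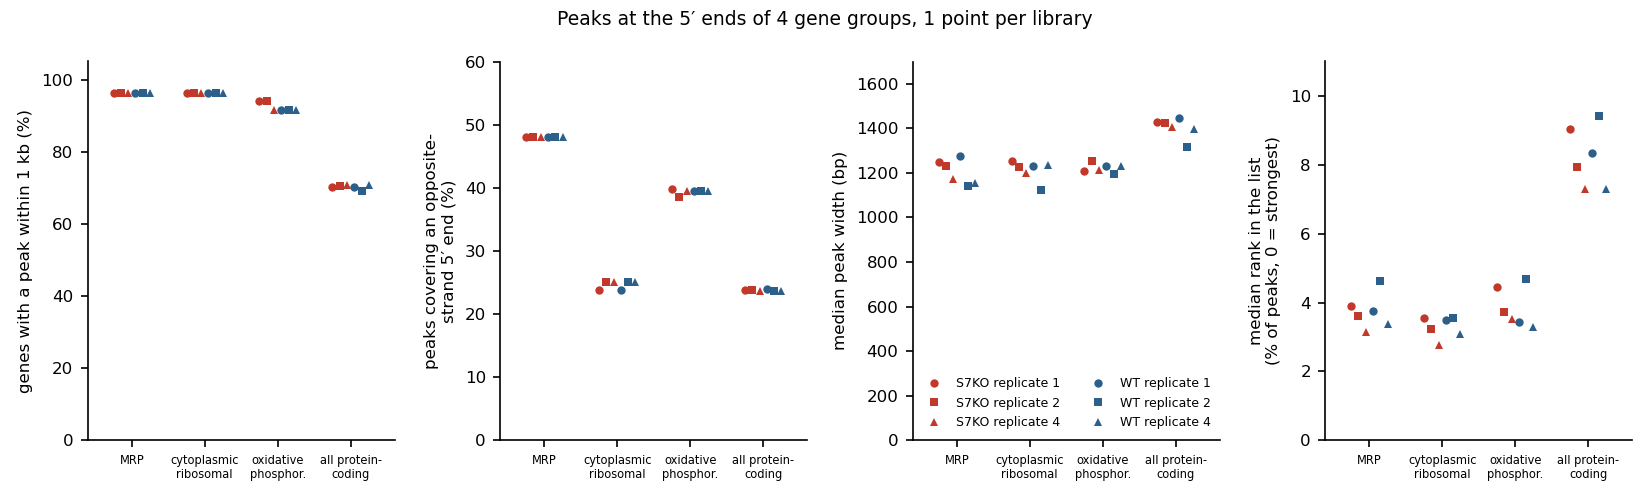
Share of genes with a peak within 1 kb of the 5′ end, share of those peaks that cover an opposite-strand 5′ end, median peak width and median rank for 4 gene groups, with 1 point per library (red S7KO, blue WT; circle, square and triangle for replicates 1, 2 and 4). MRP genes had a peak at 96.2% in every library and covered an opposite-strand 5′ end in 48%, and in no panel did the red and blue MRP points separate.

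Many MRP peaks also covered an annotated 5′ end on the other strand. In every library this was so at 36 of the 75 genes (48%), the same 36 throughout, counting protein-coding and lncRNA genes on the opposite strand. Of all 14613 protein-coding genes with a peak in all 6 libraries, 23.6% did so. The partner was protein-coding at 33 of the 36 (44% of 75, against 15.5% of all genes). The share with any partner was 23.8% for cytoplasmic ribosomal protein genes and 39.5% for oxidative phosphorylation genes. At Mrps21, Mrps26 and Mrpl55 the partner was a lncRNA.

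This sharing was present in the gene map. A divergent protein-coding 5′ end lay within 1 kb upstream of 21 of 78 MRP genes (26.9%), of 6.90% of all protein-coding genes, of 14.5% of cytoplasmic ribosomal protein genes and of 28.9% of oxidative phosphorylation genes. At all 21 MRP genes the peak spanned both 5′ ends in 6 of 6 libraries, and over all genes with such a neighbour the peak covered an opposite-strand protein-coding 5′ end at 93.0%. The other 12 protein-coding partners overlapped the MRP gene at their 5′ ends. The distance between the 5′ ends of MRP gene and protein-coding partner had a median of 100 bp and a range of 9 to 1458 bp, and it was at most 250 bp at 24 of 33.

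By gene boundaries, the closest pairs were Mrpl54 with Apba3, an adaptor protein gene, at 9 bp, and Mrpl21 with Ighmbp2, a helicase gene, at 13 bp. Mrpl2 lay 17 bp from Klc4, a kinesin light chain gene, and Mrpl36 lay 21 bp from Ndufs6, a subunit of respiratory complex I. Mrpl30 and Mitd1 were 28 bp apart, Mrps34 and Eme2 33 bp, Mrpl37 and Cyb5rl 36 bp, and Mrpl57 and Ska3, a kinetochore gene, 63 bp. Mrps11 (chr7:78783131-78792988, plus strand), a small subunit protein, and Mrpl46 (chr7:78775341-78783089, minus strand), a large subunit protein, were partners of each other at 42 bp. Their common peak was 1302, 1057 and 1171 bp wide in S7KO replicates 1, 2 and 4 and 1302, 1190 and 1119 bp in WT replicates 1, 2 and 4. The 75 genes therefore stood on 74 separate peaks. The annotated boundary of Mrpl36 lay 2506 bp before its curated start, and by the curated start its peak covered no opposite-strand 5′ end. Likewise Mrps2, whose curated start is 2115 bp inside the gene, had no covered partner there. Mrpl54 has no curated start here, and its peak did not cover the curated start of a partner. At Mrps18b, by curated starts, the partner was covered in 5 of 6 libraries.

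Several partners also act in mitochondria, and distances are again between gene boundaries. Mrps12, a homologue of the bacterial decoding-site protein, shared its peak with Sars2, which encodes the mitochondrial seryl-tRNA synthetase, at 136 bp. Mrpl43 shared with Twnk, the helicase of mitochondrial DNA, at 779 bp, Mrpl47 with Ndufb5 of complex I at 302 bp, and Mrps27 with Ptcd2, a mitochondrial pentatricopeptide repeat gene, at 89 bp. Other partners have other roles. They included Fau, which encodes a cytoplasmic ribosomal protein as a fusion (Mrpl49, 192 bp), the proteasome gene Psma2 (Mrpl32, 205 bp), the chaperonin gene Tcp1 (Mrpl18, 1458 bp) and the histone chaperone gene Hira (Mrpl40, 113 bp). The condensin gene Ncapd2 (Mrpl51, 100 bp), the DNA helicase gene Helq (Mrps18c, 98 bp) and the nuclease gene Eme1 (Mrpl27, 66 bp) were others. By curated starts, 30 of 68 MRP genes (44.1%) covered an opposite-strand 5′ end, against 23.2% of all protein-coding genes.

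At the median, MRP peaks were narrower than those of all protein-coding genes, mainly on the gene side, and close to those of cytoplasmic ribosomal protein and oxidative phosphorylation genes. The median width at MRP genes was 1249, 1229 and 1171 bp in S7KO replicates 1, 2 and 4 and 1278, 1139 and 1155 bp in WT replicates 1, 2 and 4. Over all protein-coding genes it was 1427, 1424 and 1406 bp in S7KO and 1445, 1318 and 1397 bp in WT. In each library the MRP median was thus below that of all genes. Cytoplasmic ribosomal protein genes had 1226 ± 27.5 bp (mean ± SD of 3 library medians, S7KO) and 1197 ± 63.6 bp (WT), and oxidative phosphorylation genes 1225.5 ± 22.6 and 1219 ± 22.3 bp. The peak reached 623 ± 4.93 bp (median over genes, mean ± SD of 3 libraries) past the 5′ end into the gene in S7KO and 618 ± 14.7 bp in WT, against 855 ± 8.14 and 840 ± 29.9 bp for all genes. It was 633.5 ± 24.8 and 608 ± 18.6 bp for cytoplasmic ribosomal protein genes, and 666 ± 4.01 and 659 ± 43.1 bp for oxidative phosphorylation genes, so the short reach was not particular to MRP genes. Upstream it reached 528 ± 14.9 bp (S7KO) and 493 ± 35.0 bp (WT), against 502 ± 6.51 and 486 ± 27.5 bp for all genes. S7KO minus WT upstream was 35.3 bp at MRP genes and 15.7 bp at all genes, and the libraries overlapped in both. At 750 bp into the gene, the peak was still present at 30.2% of MRP genes in S7KO and 28.4% in WT, and at 59.8% and 58.2% of all genes.

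**Figure D2:**
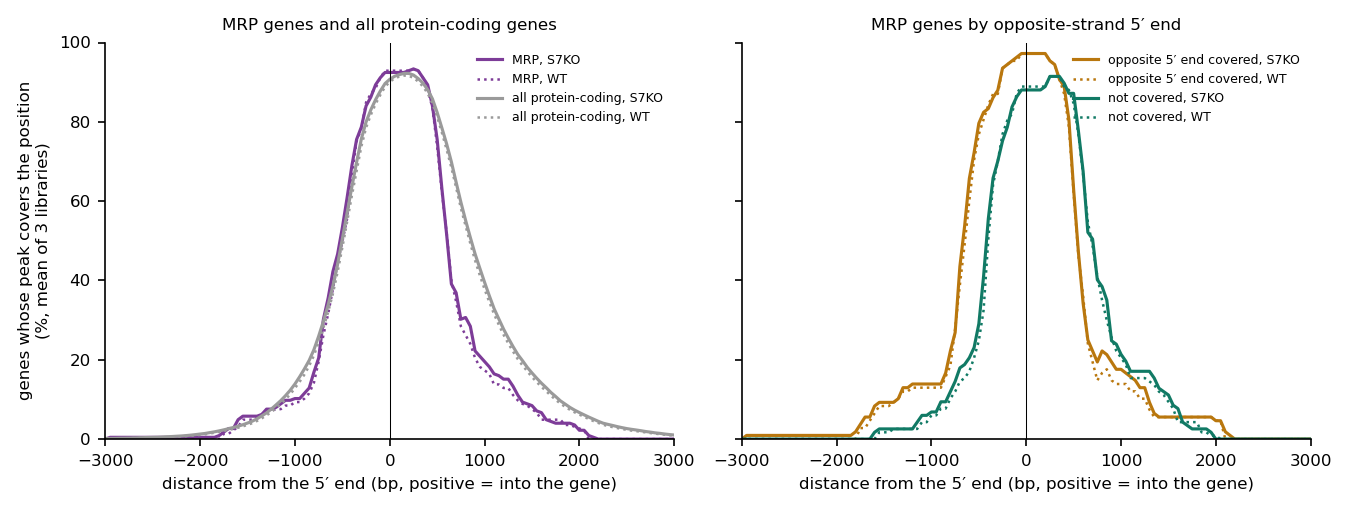
Share of genes whose peak covers each position around the 5′ end (negative upstream, positive into the gene), as the mean of 3 libraries (solid S7KO, dotted WT), for the 75 MRP genes and all 14613 protein-coding genes (left) and for the 36 MRP genes whose peak covers an opposite-strand 5′ end and the 39 others (right). MRP curves fell sooner inside the gene than the curve of all genes, and the peaks of the 36 genes reached further upstream.

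Shared peaks extended upstream and the others into the gene. At 500 bp upstream, the peak was still present at 79.6% of the 36 genes with a shared peak in S7KO and at 76.9% in WT, against 29.1% and 24.8% of the 39 others. At 750 bp into the gene the shares were 19.4% and 14.8% for shared peaks and 40.2% and 41.0% for the others. Shared peaks had a median width of 1282 ± 55.3 bp (S7KO) and 1239 ± 57.3 bp (WT), and the others 1178 ± 30.3 and 1131 ± 91.7 bp (SD, n = 3 libraries each). Sharing is itself a matter of reach, since a wider peak is more likely to cover a second 5′ end. The width differences between genotypes were 43 bp for shared peaks and 46.7 bp for the others, smaller than the SD of the WT libraries. For the others the difference exceeded the S7KO SD, and in both classes the libraries overlapped.

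Among MRP genes the median width over the 6 libraries ran from 526.5 to 2664.5 bp. It lay between 1 and 1.5 kb at 45 of the 75, below 1 kb at 13 and above 2 kb at 7. The narrowest peak was at Mrpl33 (chr5:31613951-31622644, plus strand), with 505, 560 and 541 bp in S7KO replicates 1, 2 and 4 and 497, 514 and 539 bp in WT replicates 1, 2 and 4. Next came the small subunit genes Mrps17, at 689, 674 and 706 bp in S7KO against 674, 668 and 707 bp in WT, and Mrps16, at 756, 778 and 770 bp in S7KO against 764, 770 and 759 bp in WT. At these genes the libraries of both genotypes overlapped and were nearly equal. Mrps2 and Mrpl28 followed, with median widths of 813.5 and 829.5 bp.

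The widest peak was at Mrps34 (chr17:24895120-24896289, plus strand), a small subunit protein without a bacterial counterpart. It measured 2858, 2649 and 2666 bp in S7KO and 2663, 2515 and 2764 bp in WT, and in all 6 libraries it spanned the whole gene of 1170 bp and the 5′ end of Eme2. Mrpl34, Mrpl53 and Mrpl40 had median widths of 2199, 2186 and 2075.5 bp, each reaching over 1.5 kb upstream. Mrpl1 (chr5:96209498-96266727, plus strand) was less even, with 2416, 2447 and 1583 bp in S7KO and 2290, 2127 and 2570 bp in WT, where S7KO replicate 4 alone was low. For most genes the libraries agreed closely. The ratio of the widest to the narrowest library had a median of 1.13 and exceeded 1.5 at 10 genes. The largest ratio was 2.87, at Mrps18b, with 3348, 1772 and 2121 bp in S7KO and 1985, 1166 and 2127 bp in WT. WT replicate 2, the shallowest library, was the narrowest at 35 of the 75 genes.

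**Figure D3:**
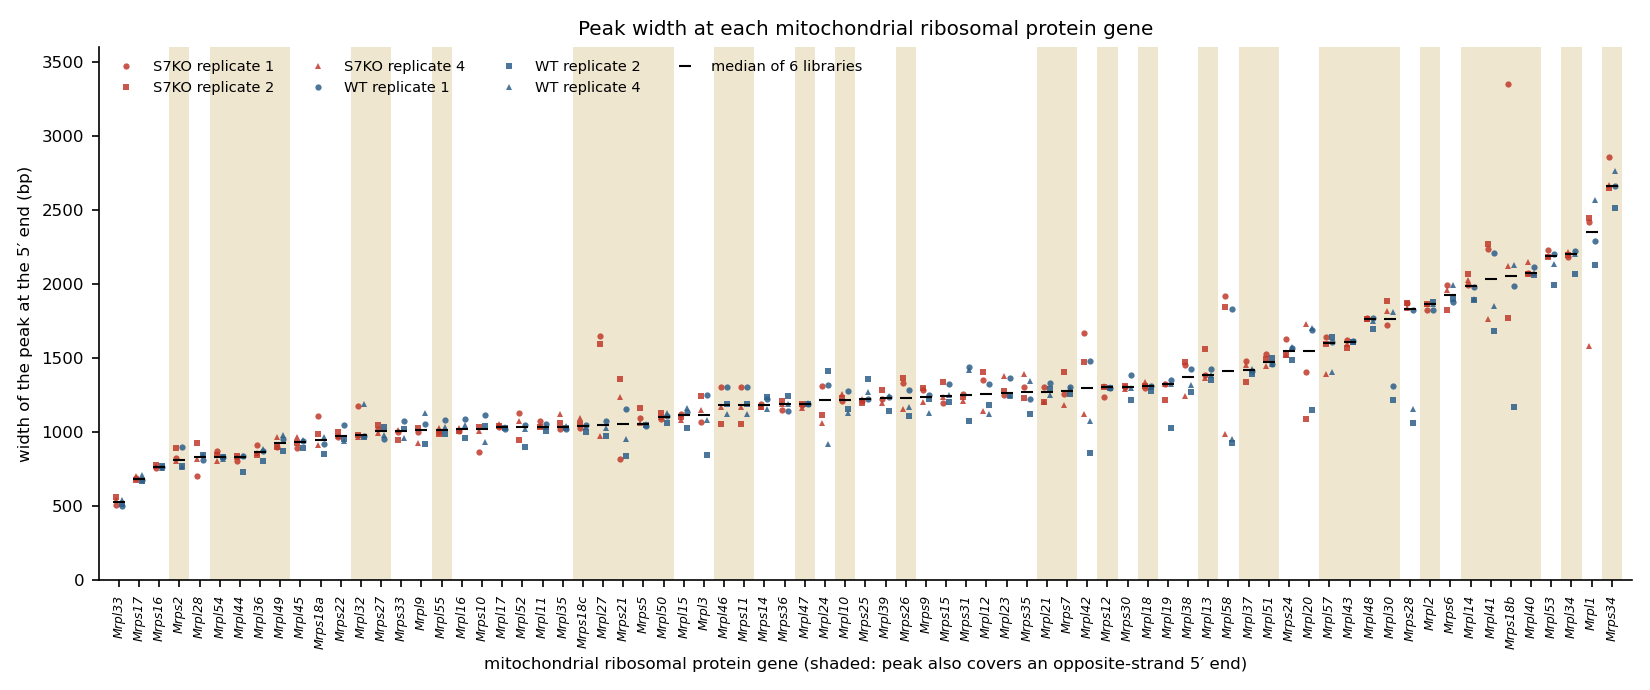
Width in bp of the peak at each of 75 MRP genes in the 6 libraries (red S7KO, blue WT; circle, square and triangle for replicates 1, 2 and 4), ordered by the median (black dash) from Mrpl33 at 526.5 bp to Mrps34 at 2664.5 bp. Shading marks the 36 genes whose peak also covers an opposite-strand 5′ end, which run from Mrps2, the fourth narrowest, to Mrps34.

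The classes of MRP lay close together, and differences between them were not tested. Median widths were 1201 bp for 28 large subunit genes with a bacterial homologue, 1302.5 bp for 21 mitochondria-specific large subunit genes, 1180.5 bp for 16 small subunit genes with a homologue and 1227.5 bp for 9 mitochondria-specific small subunit genes. Opposite-strand 5′ ends were covered at 13, 12, 7 and 4 of them. The median rank was 4.08%, 3.75%, 3.20% and 2.92%. Mrps36, whose product is known to belong to the 2-oxoglutarate dehydrogenase complex and not to the ribosome, had a peak of 1186 bp at a median rank of 0.408% and no partner.

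No MRP promoter gained or lost its peak without SIRT7. None had a peak in 3 of 3 libraries of a genotype and 0 of 3 of the other, a pattern that 7 of 21440 protein-coding genes (0.0326%) showed in favour of S7KO and 0 (0%) in favour of WT. The S7KO libraries had a median MRP peak width of 1216 ± 40.5 bp and the WT libraries 1191 ± 76.1 bp (SD, n = 3 each). The difference of 25.7 bp was smaller than either SD, and the libraries overlapped. Without WT replicate 2 the difference was -0.167 bp. The rank, the fold enrichment and the share of shared peaks also overlapped between genotypes.

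Gene by gene, peak width did not pass the test at any MRP gene. Log2 width was fitted with limma over the 14613 protein-coding genes with a peak in all 6 libraries, and p-values were adjusted by Benjamini-Hochberg over all of them. In limma 0 of 75 MRP genes passed an adjusted p of 0.05 and 0 had an unadjusted p below 0.05. Of all genes, 14 passed (0.0958%), 11 of them wider in S7KO (0.0753%) and 3 narrower (0.0205%), and 471 had an unadjusted p below 0.05 (3.22%, with 2.6% wider and 0.623% narrower). The smallest adjusted p among MRP genes was 0.987. The median difference, S7KO minus WT, was 0.02 on the log2 scale at MRP genes and 0.02 at all genes, and both were -0.02 once each library's log2 widths were centred. At 61 of the 75 the difference was at most 0.1 in size, with a median SE of 0.06. Of all genes 74.0% had a difference of at most 0.1, also with a median SE of 0.06. S7KO was wider by any amount at 49 genes (65.3%) and at 68.3% of all genes. After centring these shares were 38.7% and 40.7%.

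The S7KO and WT widths did not overlap at 4 MRP genes, all wider in S7KO, and at 0 in the other direction, against 6.86% and 1.66% of all genes. The largest such difference was at Mrps28 (chr3:8802146-8923857, minus strand), a small subunit protein with a bacterial homologue. Its peak measured 1872, 1870 and 1837 bp in S7KO replicates 1, 2 and 4 and 1827, 1063 and 1152 bp in WT replicates 1, 2 and 4. WT replicate 1 was thus just below the lowest S7KO library, while WT replicates 2 and 4 were much narrower. The log2 difference was 0.51 ± 0.21 (SE, limma adjusted p = 0.987). Without WT replicate 1 it was 0.75 with a limma adjusted p of 0.0251, the single setting in which an MRP gene passed. At Mrps5, a small subunit homologue, the peak was 1092, 1164 and 1062 bp in S7KO and 1038, 1050 and 1052 bp in WT (log2 difference 0.08 ± 0.05, limma adjusted p = 0.987), and the difference was 0.04 after centring and 0.04 without S7KO replicate 2. At Mrpl14 it was 1994, 2065 and 2025 bp in S7KO and 1978, 1892 and 1899 bp in WT (log2 difference 0.08 ± 0.03, limma adjusted p = 0.987), or 0.04 after centring. Mrpl17 was the other gene without overlap, chosen after its values were seen, with 1033, 1043 and 1051 bp against 1018, 1026 and 1032 bp. Its log2 difference of 0.02 became -0.02 after centring.

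**Figure D4:**
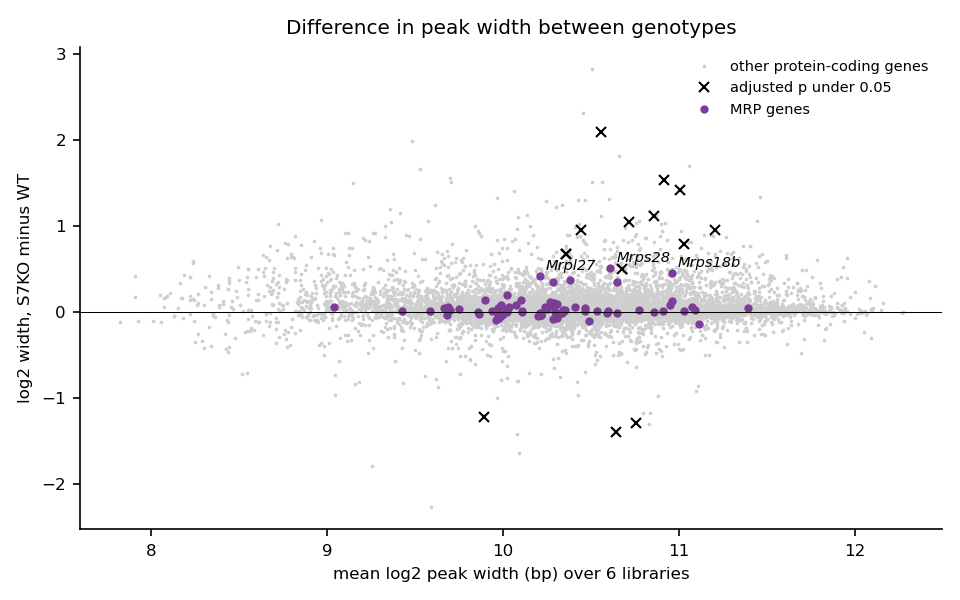
Difference in log2 peak width, S7KO minus WT, against mean log2 width over 6 libraries for 14613 protein-coding genes (grey), the 14 with a limma adjusted p under 0.05 (crosses) and the 75 MRP genes (purple). The MRP genes lay between -0.14 and 0.51, with Mrps28, Mrps18b and Mrpl27 highest and no MRP gene among the crosses.

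Other genes of mitochondrial translation nearly all had a promoter peak. Sharing and strength varied among these short lists, and differences among the lists were not tested. All 5 mitoribosomal proteins under other symbols (Aurkaip1, Chchd1, Dap3, Gadd45gip1 and Ptcd3), all 10 translation factors (among them Tufm, the elongation factor that delivers aminoacyl-tRNA) and all 20 genes of mitoribosome assembly and rRNA modification had a peak in all 6 libraries. So did 15 of 17 mitochondrial aminoacyl-tRNA synthetase genes. Opposite-strand 5′ ends were covered at 4 of 5 (80%), 2 of 10 (20%), 8 of 20 (40%) and 6 of 15 (40%), against 23.6% of all genes. The share of translation factors was thus close to that of all genes. The 5 mitoribosomal proteins under other symbols had a median fold enrichment of 4.38 ± 0.176 (S7KO) and 4.30 ± 0.111 (WT), below that of all genes, at median ranks of 6.27% ± 1.99 and 6.48% ± 1.70 (SD, n = 3 libraries each). In limma 0 genes of the 4 lists passed an adjusted p of 0.05 in either direction, and 0 had an unadjusted p below 0.05. Their median log2 differences were 0.04, 0.02, 0.04 and -0.01. Tfb1m, which encodes an rRNA methyltransferase, had the strongest peak of these genes, at a median rank of 0.0125%.

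The exceptions were Aars2 and Tars2, which encode the mitochondrial alanyl- and threonyl-tRNA synthetases. Aars2 had a peak within 1 kb of the gene boundary only in S7KO replicate 1 (253 bp) and WT replicate 4 (214 bp). Tars2 had one in S7KO replicate 1 (1259 bp), WT replicate 1 (1293 bp) and WT replicate 4 (1496 bp). In neither did presence follow genotype, and at the curated start both had a peak in 6 of 6 libraries.

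Each of the NRF1, ETS and YY1 motifs matched at a minority of MRP promoters, at a higher share than over all protein-coding promoters. Within the 300-base windows, NRF1 (GCGCATGC) matched at 8 of 69 MRP genes (11.6%), ETS (CCGGAAG) at 24 (34.8%) and YY1 (AAGATGGCG) at 8 (11.6%). Of 17492 protein-coding promoters, 3.61%, 11.9% and 1.92% held them, and of the 11702 with a peak in all 6 libraries 5.01%, 16.2% and 2.71%. Oxidative phosphorylation genes had 14.5%, 23.2% and 8.70%, and cytoplasmic ribosomal protein genes 3.17%, 38.1% and 6.35%. Matches were counted on both strands, no match overlapped one of another motif, and NRF1 matches overlapped each other at 3 genes. Other forms of these sites were not searched, so a window without a match can still hold one. The genes with the NRF1 match were Mrpl9, Mrpl10, Mrpl17, Mrpl22, Mrpl32, Mrpl33, Mrpl39 and Mrps18b. The genes with the YY1 match were Mrpl35, Mrpl36, Mrpl37, Mrpl42, Mrps11, Mrps18a, Mrps24 and Mrps27. At least 1 of the 3 motifs was found in 34 windows, and 35 had none.

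Of the other motifs, NF-Y, the E-box and the cyclic AMP response element matched at shares close to those of all windows. SP and KLF factors (GGGCGGG) matched at 42.0% of MRP windows and 34.0% of all, NF-Y (CCAAT) at 39.1% and 39.2%, the E-box (CACGTG) at 7.25% and 7.91%, the cyclic AMP response element (TGACGTCA) at 2.90% and 2.33%, and ZFP143 (ACTACAA) at 7.25% and 3.82%. The TATA box (TATAAA) matched at 5.80% and 13.3%. Among genes with a peak in all 6 libraries, the SP and KLF, ZFP143 and TATA box shares were 46.5%, 3.97% and 7.53%. The median number of CpG dinucleotides per window was 21 at MRP genes, 13 at all protein-coding genes and 20 at those with a peak in all 6 libraries. MRP windows whose peak covered a second 5′ end had a median of 24 CpG and the others 17. A match describes letters in the window and not binding.

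**Figure D5:**
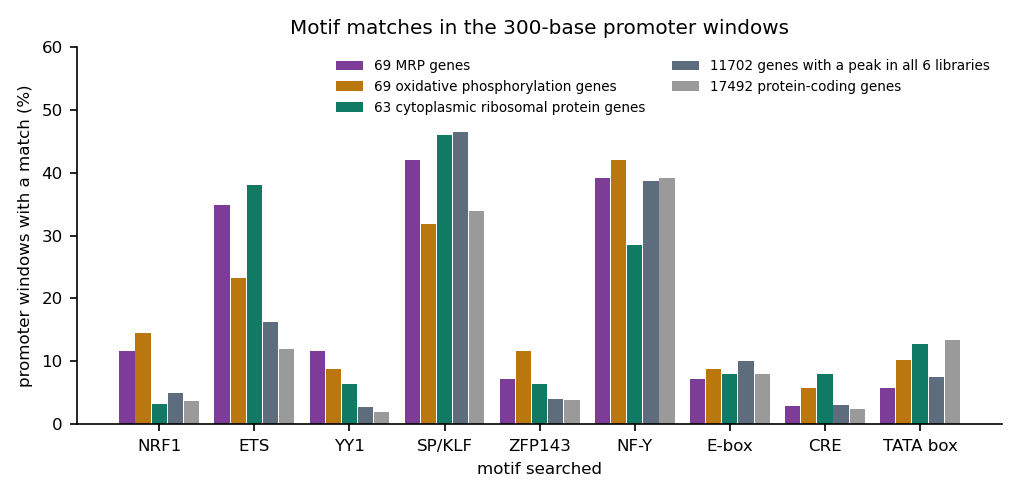
Share of 300-base promoter windows with at least 1 match, on either strand, to each of 9 motifs in 5 groups of genes (bars start at 0). NRF1, ETS and YY1 matched at 11.6%, 34.8% and 11.6% of MRP windows and at 3.61%, 11.9% and 1.92% of all protein-coding windows.

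Width differences between S7KO and WT were set beside the NRF1 matches, since SIRT7 is known to act with NRF1. The median log2 difference was 0.03 at the 7 NRF1-motif MRP genes with a peak in all 6 libraries (range -0.07 to 0.45) and 0.01 at the 60 others with a window (range -0.14 to 0.42). In limma 0 genes of either group had an unadjusted p below 0.05. The highest value with a motif was that of Mrps18b, whose widths spread most. The 22 ETS-motif genes had a median of 0.04, against 0.00 at the 45 others, and the 8 YY1-motif genes 0.04, against 0.01 at 59. Genes without a match may hold a form of the site that was not searched. Differences between genes with and without a match were not tested.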

How the data were processed

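ATAC-seq libraries of 3 S7KO and 3 WT samples were made from enriched spermatogonia. Per the submitters' processing notes and the study's methods, the authors aligned to mm10 with Bowtie2 2.4.4.1, called peaks with MACS2 2.2.5 and used SAMtools 1.19.2, Trim Galore 0.6.6 and deepTools 3.5.1. They kept unique, non-duplicate reads, removed mitochondrial reads, shifted the ends for Tn5 and kept a fragment size range that leaves out fragments shorter than a nucleosome. Broad peaks were called, and 1 list was deposited per library, each with its own peaks. The study elsewhere describes calling on merged profiles of short fragments, and which fragments lie behind these lists was not settled here. The deposited lists give each peak's position, a score, the fold enrichment (a ratio to local background), and −log10 p and −log10 q values. The score was not used for any result. The lists hold no counts, and peak width depends on depth as well as on chromatin, so a shallower library can give narrower peaks.

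Here the 5′ end was the RefSeq GRCm38.p6 gene boundary, with strand from the RefSeq promoter table (69 MRP genes) or from GENCODE by symbol (9). A 5′ end was mapped for 21440 of 21887 protein-coding and 11379 of 12727 lncRNA genes. The peak nearest to the 5′ end within 1 kb was assigned to the gene. Log2 widths were compared with limma 3.58.1 (R 4.3.3, two-sided, no block, Benjamini-Hochberg) after the script was tested on simulated data. Python 3.11.15, NumPy 2.4.6, pandas 2.3.3 and matplotlib 3.10.9 were used. The genes and lists were chosen with earlier results of these data known. Named were MRP genes lacking a peak in a library, the 5 widest and 5 narrowest, the 10 closest to an opposite-strand protein-coding partner, up to 3 per direction with the largest differences among those without overlap, and listed pathway genes lacking a peak. Partners and motif genes named beyond these were chosen after their values were seen. Alternatives were stricter peaks, equal peak numbers, other windows, joined peaks, centred widths, a replicate block and each library left out. Curated transcript starts, replicates 1 and 4 only, and a block with centred widths were added after seeing the data.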

Additional observations from a re-analysis of the deposited data

How the results depend on the processing

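The number of MRP genes with a peak was equal in S7KO and WT under all alternatives run but one. Where the peak had to cover the 5′ end, S7KO minus WT was -0.333 genes (69.3 against 69.7). The number with a covered opposite-strand 5′ end differed by -0.333 (35.7 against 36) when the peak had to reach 100 bp past that end, and by 0.333 (33 against 32.7) with curated transcript starts, an alternative chosen after seeing the data. The difference in median MRP width was between -0.167 and 69.3 bp with each library left out in turn and -6.5 bp with replicates 1 and 4 only, also chosen after seeing the data. The count of all genes passing an adjusted p of 0.05 in limma, 14 as reported, ran from 11 to 51 with each library left out and was 9 with replicates 1 and 4 only. It was 43, 51 and 37 without S7KO replicate 4, WT replicate 1 and WT replicate 4. The count of MRP genes passing ran from 0 to 1 with each library left out. The 1 was Mrps28 without WT replicate 1. Its log2 difference ran from 0.36 to 0.75 over these fits. The cause was not tested.

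With a replicate block, 0 genes passed in limma, and 1 gene passed with the block and centred widths, chosen after seeing the data. No MRP gene passed with the block. Deviations of same-numbered libraries had correlations over genes of 0.0737, -0.0119 and 0.108 for replicates 1, 2 and 4. For replicates 1 and 4 the same-numbered library gave the highest value, and crossing them gave -0.103 and -0.091. Deviations nearly cancel within a group of 3 libraries, so these crossed values are not independent of the same-numbered ones. Their background coverage was also close, at 4.72 and 4.74 and at 6.03 and 6.001. S7KO replicate 2 correlated best with WT replicate 1 (0.0184). Sample titles and descriptions number the libraries differently, and title numbers were used. Whether equal numbers mark pairs was not settled, and the main fit had no block.

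The lists give peaks and not reads. Fold enrichment and rank were compared between genotypes only over gene groups. A change in signal at a single gene without a change in peak extent was therefore not tested. With 3 libraries a group, width differences well above the median SE of 0.06 log2 could also be missed. In the simulated data, a true difference of 1 log2 was recovered at 79 of 100 changed genes, and one of 2 log2 at 91 of 100. There, 5 unchanged genes were also called, and 1 changed gene had the wrong sign. The simulation included no shift common to a library and no change smaller than 1 log2, so recovery of smaller differences was not tested. At Mrps28 a difference of 0.51 did not pass (limma adjusted p = 0.987).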
